A study of Mus musculus with 9 samples.

Results

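The G2/M and mitosis genes are 40 mouse genes whose products carry a cell from the end of DNA replication through chromosome segregation to the cut between the daughter cells. They were taken by name as rows of the count table, and all 40 of the 40 names were found among its 17943 genes. The table holds bulk RNA-Seq of skin from 5 control mice and 4 *Supt6*-KO mice, harvested on day 10 after the last injection. *Supt6* encodes SPT6, a histone chaperone that travels with RNA polymerase II. The *Supt6*-KO mice carried K14-CreERT and *Supt6* fl/fl alleles and received tamoxifen, and the controls were *Supt6* fl/fl mice given corn oil, although the sample labels call them WT. The floxed alleles were thus shared by both groups, and the Cre transgene, the drug and the deletion cannot be told apart as sources of a difference. The Keratin 14 promoter drives Cre in basal keratinocytes and other K14-positive epithelium. Cells that descend from these, such as suprabasal keratinocytes, inherit the deletion, and the paper reports reduced *Supt6* in suprabasal cells too. Skin cells of other lineages keep their *Supt6* alleles. The labels name the ear as the tissue and the study's methods name dorsal skin. Age is not given in the labels.

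In dividing cells, cyclins A and B switch on CDK1, and CDK1 with the Polo and Aurora kinases builds the spindle. The kinetochore, a protein complex on each centromere, binds spindle microtubules, and the spindle checkpoint holds back the anaphase-promoting complex (APC/C) until every chromosome is attached. APC/C with CDC20 then marks cyclin B and securin for destruction, the chromosomes part and the cell divides. Most of these genes are transcribed late in the cell cycle, held down outside it by the DREAM complex and raised in it by B-MYB and FOXM1, and in normal epidermis dividing cells lie in the basal layer and the hair follicle.

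The promoters of such genes are known for 2 short elements, the cell cycle genes homology region (CHR, letters TTTGAA) and the CCAAT box (letters CCAAT). Promoter windows of 300 bases (250 before to 50 after the start, RefSeq, GRCm38.p6) were held for 33 of the 40 genes, in 35 windows, and were not held for *Aurkb*, *Ccna2*, *Cdc25c*, *Foxm1*, *Incenp*, *Kif20a* and *Tpx2*. Read on both strands, TTTGAA stood in 26 of these 35 windows (74.3%) against 17.9% of all 32851 windows, and CCAAT in 27 (77.1%) against 37.4%. TTTGAA together with at least 2 CCAAT stood in 16 windows (45.7%) against 2.09% of all windows. Both elements were also held by genes that did not pass the edgeR test given below. TTTGAA was found in 13 of the 20 genes with a window that it called higher and in 11 of the 13 not called. A stretch of 150 bases, 120 before to 30 after the start, is shown for *Cdc20*, *Ccnb2* and *Cenpa*, which rose, for *Ttk* and *Top2a*, which did not pass the test, and for *Birc5*, which rose and holds neither element in its window. Capitals mark TTTGAA and CCAAT on either strand (TTCAAA and ATTGG where the element is on the other strand).
Cdc20, chr4:118437314-118437463, minus strand: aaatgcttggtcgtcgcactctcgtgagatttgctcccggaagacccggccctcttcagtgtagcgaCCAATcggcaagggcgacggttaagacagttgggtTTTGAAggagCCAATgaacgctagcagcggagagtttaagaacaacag
Ccnb2, chr9:70421525-70421674, minus strand: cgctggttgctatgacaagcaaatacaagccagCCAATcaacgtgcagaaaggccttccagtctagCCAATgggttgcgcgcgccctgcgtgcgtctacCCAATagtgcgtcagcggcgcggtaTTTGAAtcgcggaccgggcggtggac
Cenpa, chr5:30666766-30666915, plus strand: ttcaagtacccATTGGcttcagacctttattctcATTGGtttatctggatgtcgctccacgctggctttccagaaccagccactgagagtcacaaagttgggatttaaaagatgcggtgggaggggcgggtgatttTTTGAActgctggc
Ttk, chr9:83834569-83834718, plus strand: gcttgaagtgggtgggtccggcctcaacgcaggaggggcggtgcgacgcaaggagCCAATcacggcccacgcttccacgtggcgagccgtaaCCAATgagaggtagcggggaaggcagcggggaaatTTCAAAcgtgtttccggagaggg
Top2a, chr11:99024160-99024309, minus strand: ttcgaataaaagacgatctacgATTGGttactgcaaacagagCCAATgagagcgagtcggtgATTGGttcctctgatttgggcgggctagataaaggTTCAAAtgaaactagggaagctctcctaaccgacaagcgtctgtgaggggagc
Birc5, chr11:117849117-117849266, plus strand: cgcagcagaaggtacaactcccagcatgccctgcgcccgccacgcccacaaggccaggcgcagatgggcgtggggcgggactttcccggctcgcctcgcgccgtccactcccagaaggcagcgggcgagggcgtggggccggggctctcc
In *Ccnb2* the 3 CCAAT letters precede a TTTGAA just past the start, and *Ttk* has the same kind of arrangement with 2 CCAAT. These matches are letters in a window and were not tested as sites.

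Total counts were close to each other, from 29627334 to 30967109 per mouse. The factors of edgeR's trimmed mean (TMM) method, which scale library totals so that most genes match, were 1.20 to 1.31 in the controls and 0.674 to 0.910 in the *Supt6*-KO mice. Levels below are TMM-scaled CPM (counts scaled to a common library total), and the choice of scale matters: over all 16426 genes tested, the log2 fold change had a median of -0.07 on this scale and -0.76 when library totals were used. *Supt6*-KO mouse 4 and control 5 stood apart from the rest of their groups on the second axis of a principal component analysis (8.13% of the variance, at -59.0 and -50.8). Fold changes of named mitotic and cell cycle genes called higher are therefore given with and without mouse 4. Counts from Y-linked genes summed to 3 and 2 in controls 1 and 3 and to 5483 or more in each of the other 7 mice, so the groups were not balanced for sex.

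*Supt6* itself lay at 74.5, 56.6, 63.6, 91.1 and 96.7 CPM in controls 1 to 5 and at 28.6, 24.1, 21.9 and 28.4 CPM in *Supt6*-KO mice 1 to 4. The groups did not overlap, and mouse 4, which stands out below, lay next to mouse 1 in *Supt6*. Whole-gene counts do not show which exons were transcribed.

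Of the 40 G2/M and mitosis genes, 23 were higher in *Supt6*-KO skin, none was lower and 17 did not pass (adjusted p under 0.05 in edgeR's quasi-likelihood test, the adjustment being that of Benjamini and Hochberg over the whole table). Of all genes tested, 34.1% were called higher and 36.8% lower by the same rule. At an unadjusted p under 0.05 the counts were 24 higher and 0 lower, beside 35.3% and 38.1% of all genes. DESeq2 called 25 higher and 0 lower, beside 36.0% and 35.4% of the 16405 genes it could adjust. It gave no adjusted p for *Plk1* and *Tpx2*, which are counted here as not called. The median log2 fold change of the 40 genes was 1.46, against -0.07 for all genes. With the study's own cutoff, an unadjusted p under 0.05 and a change of at least 2-fold, 24 were higher and 0 lower, beside 21.1% and 25.2% of all genes. With library totals 17 of these 23 stayed higher, and *Pttg1* and *Ttk* were lower, while 16.9% of all genes were called higher and 54.6% lower. In bulk skin a change in the number of dividing cells and a change in transcript per cell cannot be told apart. Every *Supt6*-KO mouse lay above every control for 20 of the 40 genes, as it did for 28.9% of all genes. With library totals it did so for 9 of the 40 and lay below every control for 1, *Pttg1*, beside 13.8% and 49.0% of all genes.

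The 4 *Supt6*-KO mice were not alike. Over the 40 genes the median fold over the control mean was 1.37 in mouse 1, 1.40 in mouse 2, 2.29 in mouse 3 and 6.18 in mouse 4, and in the controls it ran from 0.843 (control 2) to 1.26 (control 5). With library totals it was 0.864, 0.758, 1.3 and 4.53 in mice 1 to 4, so mice 1 and 2 then lay below the control mean, and in the controls it ran from 0.813 to 1.34. Mouse 4 was the highest of its group for 39 of the 40 genes, *Pttg1* being the exception, where 35.4% of all genes had their highest value in that mouse. The order mouse 4, then mouse 3, then mice 1 and 2 held for 39 genes and for 12.5% of all genes tested. Mouse 4 exceeded the mean of mice 1 to 3 by at least 2-fold for 38 genes, with a median of 3.59-fold and a range of 0.758-fold for *Pttg1* to 8.56-fold for *Plk1*, while 8.04% of all genes reached 2-fold and their median was 0.993. The coefficient of variation of the 40 genes had a median of 16.2% among controls, 79.6% among the 4 *Supt6*-KO mice and 31.3% among mice 1 to 3.

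**Figure D1:**
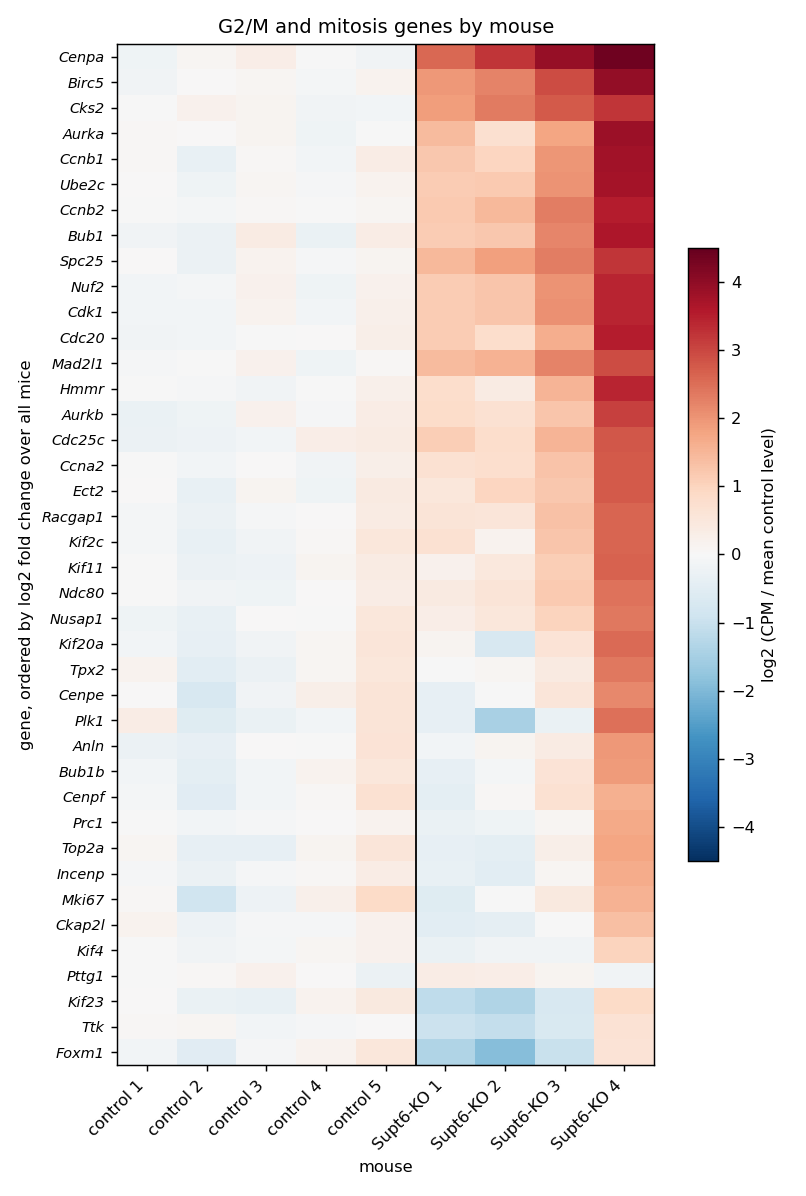
Level of each of the 40 genes (rows, ordered by log2 fold change) in each of the 9 mice (columns), as log2 of its CPM over the mean of the 5 controls. Red is above and blue below the control mean. Mouse 4 is the highest *Supt6*-KO column in 39 rows, and in the lowest 3 rows mice 1 to 3 are blue.

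Without mouse 4 the same 23 genes were higher, and *Foxm1*, *Kif23* and *Ttk* were lower, beside 35.1% of all genes called higher and 39.1% lower. The median log2 fold change of the 40 genes was then 0.73. Mice 1 to 3 alone lay above every control for 20 genes (33.9% of all genes) and below every control for 3 (36.6%), and mouse 4 alone above every control for 39 (40.1%), so on the TMM scale the list of higher genes did not depend on mouse 4 although the size of their change did. Without mouse 4 and with library totals, 12 genes were higher and 15 lower, against 17.0% and 60.6% of all genes, and the median was -0.06. The median of all genes in that fit was -0.90.

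**Figure D2:**
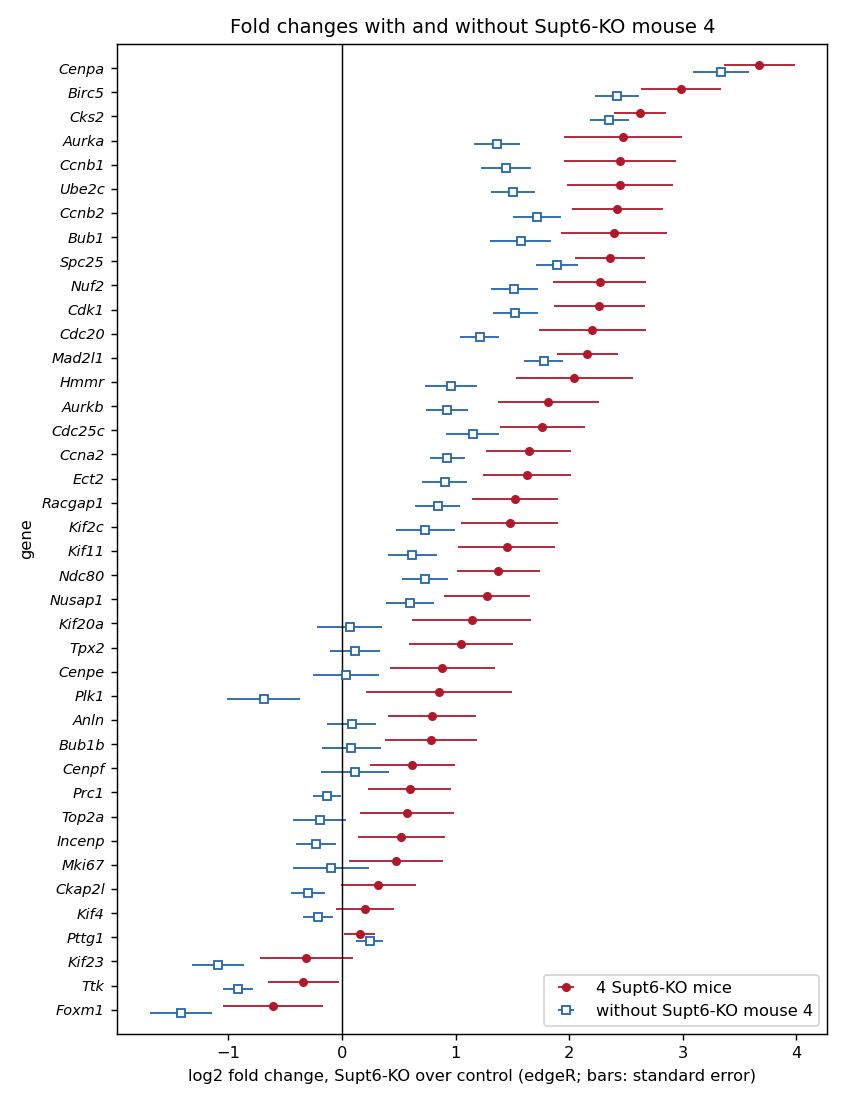
Log2 fold change of each of the 40 genes (*Supt6*-KO over control, edgeR) with its standard error as a bar, for all 4 *Supt6*-KO mice (red circles) and without mouse 4 (blue squares). Each gene but *Pttg1* moves to the left without mouse 4, and the lowest 3 move to between -0.92 and -1.42.

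Cyclins, CDK1 and its partners were called throughout: all 6 were higher, beside 34.1% of all genes, with a median log2 fold change of 2.35. *Cdk1*, the kinase that starts mitosis, lay at 13.2, 13.1, 16.2, 13.2 and 16.9 CPM in the controls and at 31.7, 34.4, 59.9 and 154 CPM in *Supt6*-KO mice 1 to 4. *Ccnb1*, cyclin B1, lay at 11.3, 8.6, 11.1, 10.0 and 13.7 CPM against 25.3, 21.3, 43.3 and 148 CPM. Neither gene had overlapping groups, and the rise was 2.27 (SE, the standard error of the log2 fold change, 0.40, adjusted p = 0.00038, edgeR) for *Cdk1* and 2.45 (SE 0.49, adjusted p = 0.00093, edgeR) for *Ccnb1* on the log2 scale. *Ccnb2*, cyclin B2, had the tightest controls, at 8.00, 7.47, 8.22, 8.01 and 8.43 CPM, and 18, 22.2, 39.2 and 92.7 CPM in *Supt6*-KO mice. *Cks2*, a small subunit that binds CDK1, lay at 10.4, 12.1, 11.7, 9.52 and 9.70 CPM against 39.4, 53.2, 71.4 and 99.5 CPM, so that mice 1 to 3 averaged 5.12-fold the control mean and mouse 4 9.32-fold. Its rise of 2.62 (SE 0.23, adjusted p = 2.7e-06, edgeR) was 1.97 with library totals. *Ccna2*, cyclin A2, and *Cdc25c*, a phosphatase that activates CDK1, rose by 1.64 and 1.76. Without mouse 4 the changes were 1.53 for *Cdk1*, 1.45 for *Ccnb1*, 1.72 for *Ccnb2*, 2.35 for *Cks2*, 0.93 for *Ccna2* and 1.15 for *Cdc25c*. The 6 genes stayed higher with library totals alone and without mouse 4 alone, and with both together *Ccna2* (0.14, adjusted p = 0.46, edgeR) and *Cdc25c* (0.37, adjusted p = 0.20, edgeR) were not called. Counts that are not whole, as arise when reads are divided between similar genes, were found for *Ccna2* and for *Plk1*, *Cenpf*, *Kif20a*, *Nusap1*, *Hmmr* and *Ube2c*, and the other 33 of the 40 genes had counts within 0.005 of a whole number in every mouse. For *Plk1* and *Ube2c* this rested on 1 mouse and a part of 0.01 and 0.03. Of all genes, 14.4% had such a count.

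Among 5 mitotic kinases 3 were higher, beside 34.1% of all genes. *Aurkb*, the Aurora kinase of the chromosomal passenger complex, lay at 5.27, 5.75, 7.45, 6.25 and 8.22 CPM in the controls and 11.6, 10.5, 15.6 and 55.1 CPM in *Supt6*-KO mice, and rose by 1.82 (SE 0.44, adjusted p = 0.0032, edgeR). *Aurka*, the Aurora kinase of spindle poles, and *Bub1*, a checkpoint kinase at kinetochores, rose by 2.48 and 2.39, and without mouse 4 the changes were 1.37 for *Aurka*, 1.57 for *Bub1* and 0.92 for *Aurkb*, all 3 still higher. Without mouse 4 and with library totals *Aurkb* was not called (0.14, adjusted p = 0.56, edgeR). *Plk1*, Polo-like kinase 1, did not follow these 3. It lay at 5.54, 3.01, 3.57, 4.06 and 6.57 CPM in the controls and at 3.38, 1.58, 3.52 and 24.2 CPM in *Supt6*-KO mice, so mouse 2 was below every control and mouse 4 was 5.32-fold above their mean. The change of 0.85 had a SE of 0.64 (adjusted p = 0.25, edgeR), and it was -0.69 without mouse 4 (adjusted p = 0.073). *Ttk*, the kinase MPS1 that starts the spindle checkpoint, was at 15.3, 15.7, 13.5, 14.1 and 14.9 CPM in the controls and at 7.44, 6.96 and 9.06 CPM in mice 1 to 3, all below every control, with mouse 4 at 22.8 CPM, above every control. Over 4 mice its value was -0.34 (adjusted p = 0.34, edgeR), and without mouse 4 it fell by 0.92 (log2, adjusted p = 9.5e-05, edgeR).

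The checkpoint and anaphase genes split in a like way, with 3 of 5 higher, beside 34.1% of all genes. *Cdc20*, the activator of APC/C, lay at 10.1, 10.4, 11.2, 11.3 and 13.6 CPM in the controls and at 24.6, 19.7, 34.7 and 129 CPM in *Supt6*-KO mice (log2 2.20, SE 0.47, adjusted p = 0.0014, edgeR). *Ube2c*, the ubiquitin-conjugating enzyme that works with APC/C, lay at 8.37, 7.23, 8.89, 7.92 and 9.32 CPM against 18.6, 19.0, 33.8 and 110.4 CPM (2.45, SE 0.47, adjusted p = 0.00064, edgeR). Both had groups that did not overlap, with mouse 4 more than 3-fold above mouse 3, and without mouse 4 they rose by 1.21 and 1.5. Without mouse 4 and with library totals *Cdc20* was not called (0.43, adjusted p = 0.067, edgeR), while *Ube2c* was still higher (0.71, adjusted p = 0.0077, edgeR). *Mad2l1*, the checkpoint protein MAD2, rose by 2.16 (1.78 without mouse 4) with a smaller spread, at 36.7 to 105 CPM in *Supt6*-KO mice against 12.1 to 15.9 CPM in controls. *Bub1b*, its partner BUBR1, was at 0.78 (adjusted p = 0.10, edgeR) and was called by DESeq2. *Pttg1*, securin, differed from all the others: its controls were at 23.2, 24.3, 26.7, 23.6 and 19.5 CPM and its *Supt6*-KO mice at 29.6, 28.4, 25.4 and 21.1 CPM, with mouse 4 the lowest of its group. Its change was 0.16 (SE 0.14, adjusted p = 0.32, edgeR) with TMM and -0.55 (adjusted p = 0.0029, edgeR) with library totals.

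**Figure D3:**
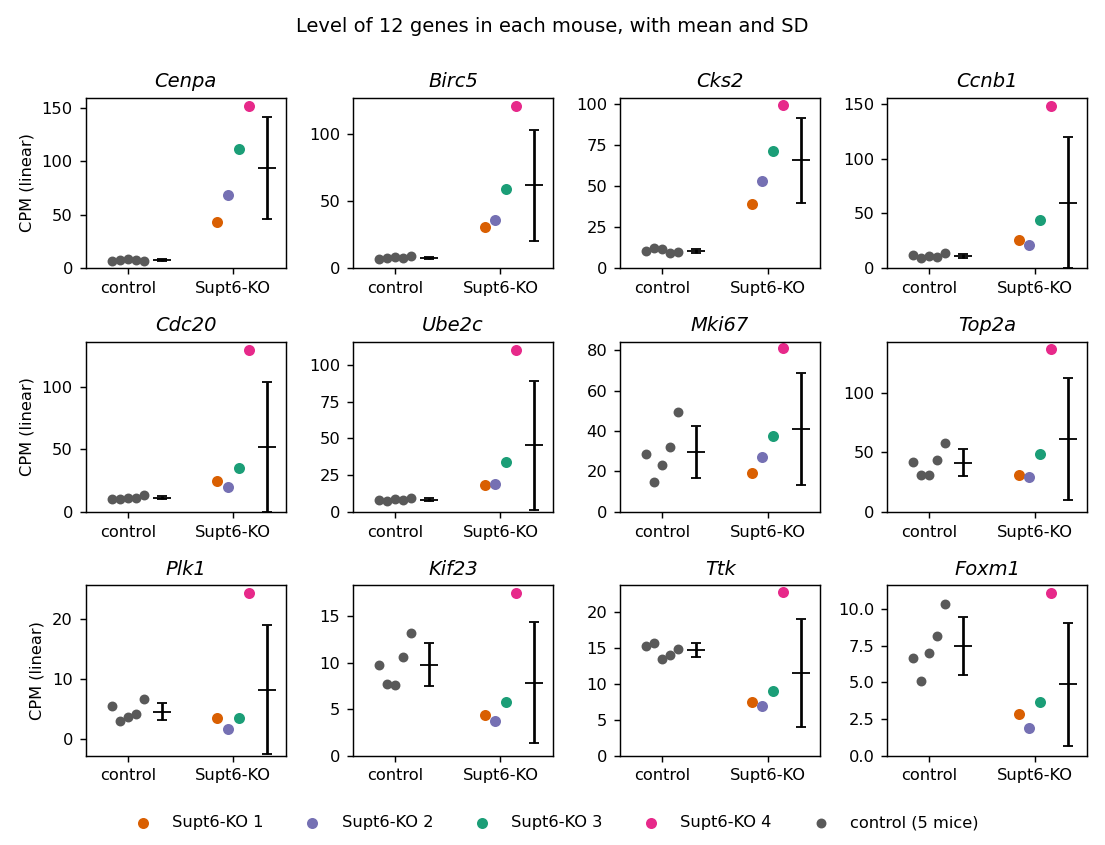
Level in CPM (linear axis, a separate scale per panel) of 12 genes in each mouse, with the 5 controls in grey and the 4 *Supt6*-KO mice in colours, and bars for the mean and SD of each group. *Cenpa*, *Birc5* and *Cks2* separate the groups in all 4 mice, whereas *Kif23*, *Ttk* and *Foxm1* have mice 1 to 3 below every control and mouse 4 above every control.

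Centromere, kinetochore and passenger genes held the 2 largest fold changes of the 40 genes, with 5 of 8 higher, beside 34.1% of all genes. *Cenpa*, the histone H3 variant that marks centromeres, lay at 6.37, 7.67, 8.91, 7.28 and 6.47 CPM in the controls and at 43.3, 68.3, 111 and 152 CPM in *Supt6*-KO mice, which made it the gene with the highest fold change of the 40 (log2 3.68, SE 0.31, adjusted p = 2.2e-06, edgeR). Its value was 3.34 without mouse 4 and 3.03 with library totals. *Birc5*, survivin of the passenger complex, lay at 6.90, 7.83, 8.22, 7.25 and 8.73 CPM against 30.3, 36.2, 59.0 and 121 CPM (2.98, SE 0.35, adjusted p = 1.8e-05, edgeR). *Birc5* was at 2.42 without mouse 4. In both genes the lowest *Supt6*-KO mouse was more than 3-fold above the highest control. *Spc25*, *Nuf2* and *Ndc80* encode subunits of the NDC80 complex, which grips the microtubule, and rose by 2.36, 2.27 and 1.38 (1.89, 1.52 and 0.73 without mouse 4), and *Ndc80* was no longer called with library totals (0.76, adjusted p = 0.13, edgeR). *Incenp*, the scaffold of the passenger complex, did not pass at 0.52 (adjusted p = 0.24, edgeR), although its partners *Birc5* and *Aurkb* did. The large kinetochore proteins also did not pass. *Cenpe*, a kinetochore motor, lay at 3.72, 2.27, 3.35, 4.46 and 5.50 CPM against 2.88, 3.69, 5.35 and 16.4 CPM (0.88, adjusted p = 0.11, edgeR), and *Cenpf* at 6.23, 4.63, 6.03, 6.95 and 10.6 CPM against 4.85, 6.86, 10.7 and 19.9 CPM (0.62, adjusted p = 0.15, edgeR). In each of these 2 genes mice 1 and 2 fell within the control range.

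Of 7 spindle motors and microtubule binders 4 were higher, beside 34.1% of all genes: *Hmmr*, a spindle protein, by 2.05, *Kif2c*, a kinesin that takes microtubules apart, by 1.48, *Kif11*, the kinesin Eg5 that pushes spindle poles apart, by 1.45, and *Nusap1* by 1.27. Without mouse 4 the changes of these 4 were 0.96, 0.73, 0.62 and 0.59. *Hmmr* alone of these 4 had groups that did not overlap, and alone stayed higher with library totals. With library totals and without mouse 4 together, *Hmmr* was not called either (0.18, adjusted p = 0.53, edgeR). *Tpx2*, which targets Aurora A to the spindle, was just outside the threshold at 1.05 (adjusted p = 0.058, edgeR), *Ckap2l* was at 0.32 and *Kif4*, a chromosome-bound kinesin, at 0.21. Of 6 cytokinesis genes 2 were higher, a share close to the 34.1% of all genes. *Ect2*, which activates RhoA at the cleavage site, and *Racgap1*, a subunit of centralspindlin, rose by 1.63 and 1.53 (0.90 and 0.84 without mouse 4). Neither was called with library totals (1.02, adjusted p = 0.062, and 0.92, adjusted p = 0.082, edgeR). *Kif20a*, *Anln* and *Prc1* were at 1.14, 0.79 and 0.60 and did not pass in edgeR, while DESeq2 called *Anln* higher (0.86, adjusted p = 0.037). *Kif23*, the motor subunit of centralspindlin, was at 9.76, 7.69, 7.64, 10.7 and 13.1 CPM in the controls and at 4.35, 3.74 and 5.76 CPM in mice 1 to 3, with mouse 4 at 17.5 CPM. It thus ran against *Racgap1* in the first 3 mice, at -1.09 without mouse 4 (adjusted p = 0.0013, edgeR) and -0.31 with it (adjusted p = 0.51, edgeR).

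*Mki67* and *Top2a*, both used as marks of dividing cells, did not pass in edgeR or DESeq2. *Mki67*, the Ki-67 protein that coats mitotic chromosomes, lay at 28.5, 14.8, 23.3, 32.1 and 49.3 CPM in the controls and at 19.0, 27.2, 37.3 and 80.9 CPM in *Supt6*-KO mice. *Top2a*, the topoisomerase that untangles sister chromatids, lay at 42.1, 31.0, 30.6, 43.9 and 58.1 CPM against 30.7, 29.4, 48.3 and 136 CPM. In both genes mice 1 to 3 were within or just below the control range and only mouse 4 was above it, and the log2 fold changes of 0.47 (SE 0.41, adjusted p = 0.32, edgeR) and 0.57 (SE 0.41, adjusted p = 0.23, edgeR) were -0.10 and -0.19 without mouse 4. With the planned length correction given below they were 1.52 (adjusted p = 0.0068, edgeR) and 1.23 (adjusted p = 0.021, edgeR), both called higher. With the second length correction given below and without mouse 4 they were 1.20 (adjusted p = 0.0083, edgeR) and 0.62 (adjusted p = 0.033, edgeR), both called higher. *Foxm1*, the transcription factor that drives many of the other genes, lay at 6.69, 5.12, 7.03, 8.19 and 10.4 CPM against 2.84, 1.92, 3.66 and 11.1 CPM. Mice 1 to 3 were below every control in *Foxm1* while all 3 exceeded every control in 20 other genes of the set, and without mouse 4 the gene fell by 1.42 (log2, SE 0.28, adjusted p = 0.00069, edgeR). Over all 4 mice the value was -0.61 (SE 0.44, adjusted p = 0.23, edgeR).

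Control 5 moved too. It held the highest control level for 31 of the 40 genes, beside 28.8% of all genes. Control 2 held the lowest for 23, and the share of all genes lowest in control 2 was not computed. Leaving out any 1 control left the same 23 genes higher. Leaving out *Supt6*-KO mouse 1, 2 or 3 gave 29, 25 and 24 higher genes, the added ones being among *Anln*, *Bub1b*, *Cenpe*, *Cenpf*, *Kif20a* and *Tpx2*.

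The size of the change went with the length of the transcript. Effective length was read from the deposited values as counts over TPM (transcripts scaled to a fixed total per library) and set to 1 for the median gene. Across the 40 genes the log2 fold change fell with length, with a Spearman rho of -0.55 and a Pearson r of -0.50, and the 10 shortest had a median of 2.43 and the 10 longest of 0.71. The same relation held across all 14427 genes with a length (rho -0.42), where the 3606 shortest had a median of 0.78 and the 3606 longest of -0.85. These points share libraries and are not independent, so no p is given. *Cks2* (0.144 of the median gene), *Ube2c* (0.236) and *Birc5* (0.262) were short and high, and *Mki67* (3.81) and *Cenpf* (4.23) long and near the controls. *Pttg1* (0.169) was short without a rise, and *Bub1* and *Cdk1* (both 1.57) were long with one. After the planned correction for GENCODE transcript length 32 of the 40 genes were higher, among them *Mki67*, *Top2a*, *Cenpe* and *Cenpf*, and 0 lower, beside 36.6% and 29.8% of all genes, with *Pttg1* at -0.21 (edgeR adjusted p = 0.20). A correction by counts over TPM, chosen after the data were seen, also gave 32 higher genes, these 4 included, but called *Pttg1* lower, beside 40.5% and 30.1% of all genes. Without mouse 4 the latter correction gave 30 higher and 4 lower, beside 42.6% and 31.1%. No RNA quality values were held, and the part of RNA integrity in this relation was not tested.

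On the per-length scale of TPM, which was deposited for mouse 4 and the controls, *Pttg1* was the most abundant of the 40 genes in control skin at 84.3 ± 3.8 TPM (SD, n = 5), followed by *Cks2* at 45.4 ± 2.4 TPM. *Ube2c* at 22 ± 4.4 TPM and *Birc5* at 18.3 ± 3.4 TPM came next and did not differ beyond their spread. *Cenpe* at 0.844 ± 0.37 TPM and *Cenpf* at 1.04 ± 0.48 TPM were the least abundant and did not differ beyond their spread. In mouse 4 *Cks2* reached 219 TPM, *Birc5* 148 TPM and *Ube2c* 146 TPM, while *Pttg1* was at 39.6 TPM and fell from first place. TPM is scaled within each library, and *Mki67* was at 6.57 TPM in mouse 4 against 5.02 ± 2.8 TPM in the controls.

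The wider mitotic machinery was read from 93 further genes of centromeres, spindles, condensin and cytokinesis. Of these, 61 were higher and 5 lower, with a median log2 fold change of 1.23, beside 34.1% and 36.8% of all genes. With library totals 34 were higher and 14 lower, beside 16.9% and 54.6%, and without mouse 4, 56 were higher and 14 lower, beside 35.1% and 39.1%. *Cdkn3*, a phosphatase that acts on CDKs, rose most at 3.58, from 1.16 to 1.58 CPM in controls to 6.94, 9.02, 16.8 and 30.9 CPM in *Supt6*-KO mice. *Ska1* of the Ska complex, *Depdc1a*, *Spc24* of the NDC80 complex, *Cenpw* and *Trip13*, an enzyme that recycles MAD2, followed at 2.93, 2.93, 2.74, 2.67 and 2.49. Without mouse 4 *Cdkn3* stood at 3.03 and these 5 at 2.33, 2.23, 2.23, 2.49 and 1.91, all still called higher. Each of these 6 kept the order of mice seen above, with mouse 4 highest, as did 12.5% of all genes. They were picked by their change over all 4 *Supt6*-KO mice, which a high mouse 4 raises, so their order is partly fixed by the pick. The 5 lower genes were *Wee1*, *Espl1*, *Cdc25a*, a phosphatase that activates CDKs, *Ckap5*, a protein that lengthens microtubules, and *Hjurp*. *Wee1*, the kinase that holds CDK1 off, lay at 72.9, 54.3, 61.6, 63.1 and 61.0 CPM in controls and at 21.8, 15, 20.3 and 20.8 CPM in *Supt6*-KO mice (edgeR log2 fold change -1.69, SE 0.14, adjusted p = 1.8e-06). It showed no excess in mouse 4. *Espl1*, the protease separase that opens cohesin, fell by 1.03 (SE 0.18, adjusted p = 0.00035, edgeR), and *Hjurp*, the chaperone that loads CENP-A, fell by 0.69 while *Cenpa* rose.

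Of 14 APC/C subunits 9 were higher and 1 lower, with a median of 0.89, beside 34.1% and 36.8% of all genes. With library totals 7 were higher and 4 lower, beside 16.9% and 54.6%. *Anapc15* rose by 1.95 and *Anapc10* by 1.73, and *Anapc2*, the cullin subunit, fell by 0.58. Without mouse 4 the rises were 1.87 and 1.80. Mouse 4 did not stand apart here: the median log2 level over the control mean was 0.71, 0.78, 0.88 and 0.87 in mice 1 to 4.

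Genes of G1/S and replication had a lower median: 21 of 40 were higher and 3 lower, with a median of 0.74, beside 34.1% and 36.8% of all genes. *Ccne1*, cyclin E1, rose by 2.81, from 1.78 to 3.41 CPM in controls to 12.2, 11.9, 14.2 and 38.9 CPM, and *Orc1*, of the origin recognition complex, by 2.08, and without mouse 4 these rises were 2.21 and 1.80. *Pole*, the catalytic subunit of DNA polymerase epsilon, and *E2f1*, a transcription factor of S-phase genes, fell by 1.00 and 0.82. With GENCODE length corrected, or with *Supt6*-KO mouse 1, 2 or 3 left out, 1 gene of this list was lower. At least 1 of these 2 falls was thus not called in each of those fits. With library totals the counts were 14 higher and 9 lower, beside 16.9% and 54.6% of all genes, and the median was 0.07. Without mouse 4 they were 20 and 11, beside 35.1% and 39.1%. The median log2 level in mouse 4 was 1.28, against 2.63 for the 40 G2/M and mitosis genes, a difference that was not tested. The Cdk inhibitors and pocket proteins were mixed, with 5 of 10 higher and 4 lower, beside 34.1% and 36.8% of all genes, and 2 higher and 4 lower with library totals, beside 16.9% and 54.6%. *Cdkn1c*, p57, fell by 1.44, *Rb1*, the retinoblastoma protein, by 0.70 and *Cdkn1a*, p21, by 0.58, while *Cdkn2d*, p19, rose by 1.32 (1.24 without mouse 4). *Cdkn1a* was named after its values were seen. *Cdkn2a*, 1 of the 5 higher genes, averaged 0.0214 CPM in the controls and 0.128 CPM after deletion, near the floor of 3 counts a library, and no fold is given for it.

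Marker genes of the cells in skin were read in the same mice. The 6 markers of basal keratinocytes, the compartment of epidermal division, summed to 9523 to 10554 CPM in controls and to 8058, 5411, 6519 and 13866 CPM in *Supt6*-KO mice 1 to 4, with mouse 4 above every control through 1 gene, *Krt14*. Of the 6, edgeR called 0 higher and 5 lower, beside 34.1% and 36.8% of all genes. DESeq2 called the same number lower and 1, *Krt14*, higher, beside 35.4% and 36.0% of all genes. *Krt14*, which was not called by edgeR, was at 4730, 3114, 3962 and 9613 CPM against 2972 to 3809 CPM in controls. The other 5 markers summed to 3328, 2297, 2557 and 4253 CPM in mice 1 to 4, each below the 6112 to 7071 CPM of the controls, with mouse 4 again the highest *Supt6*-KO mouse. The 5 suprabasal markers summed to 38589.8, 36791 and 35052 CPM in mice 1 to 3, above the 19059.6 to 20921 CPM of the controls, and to 18772 CPM in mouse 4, below every control. Of these 5, 2 were called higher and 0 lower, beside 34.1% and 36.8% of all genes, with a median log2 fold change of 0.19. With library totals 2 were higher and 3 lower, beside 16.9% and 54.6% of all genes. None of the 11 basal or suprabasal markers was at 0 in any mouse. The part of these keratinocyte levels in the mitotic result was not tested. Genes of the hair matrix, where follicle cells divide, and of the inner root sheath were summed together. They reached 28.4 to 1750 CPM in controls, with control 5 the lowest, and 20.7, 50.4, 66.1 and 76.7 CPM in *Supt6*-KO mice. *Krt35* was at 0 in mice 1 to 3, and 6 of the 7 markers were lower and 0 higher, beside 36.8% and 34.1% of all genes.

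Of cell types outside the epithelium, 4 of 6 macrophage markers were higher and 1 lower, beside 34.1% and 36.8% of all genes (171.9 CPM summed as the mean of mice 1 to 3 and 213 CPM in mouse 4, against 117 ± 44.4 CPM, SD, n = 5). With library totals 1 macrophage marker was higher and 1 lower, beside 16.9% and 54.6% of all genes, and their median log2 fold change went from 0.78 to 0.09. For neutrophils 4 of 5 tested markers were higher and 1 lower, beside 34.1% and 36.8% of all genes (42.7 ± 23.3 CPM, SD, n = 4, against 7.08 ± 1.90 CPM, SD, n = 5). The neutrophil sum was lowest in mouse 4 of the *Supt6*-KO mice, at 24 CPM. With library totals 3 neutrophil markers were higher and 1 lower, beside 16.9% and 54.6% of all genes. Zeros were found in both groups, for *Elane* in controls 1, 2 and 3 and *Supt6*-KO mice 1, 3 and 4, and for *Ly6g* in controls 1, 3, 4 and 5 and *Supt6*-KO mouse 2, while *Mpo* was at 0 in *Supt6*-KO mice 2, 3 and 4. T cell markers were 1 higher and 3 lower of 4, beside 34.1% and 36.8% of all genes. Markers of fibroblasts (4 of 5), endothelial cells (4 of 5), skeletal muscle (5 of 5), cartilage (4 of 4 tested) and adipocytes (4 of 4) were lower, with 0 higher, beside 36.8% of all genes lower and 34.1% higher. Mouse 4 lay close to the other *Supt6*-KO mice in these types, with 939 CPM against a mean of 1102 CPM in mice 1 to 3 for fibroblasts, 30.6 against 38.9 CPM for endothelial cells, 472 against 581 CPM for muscle, 33.9 against 33.5 CPM for cartilage and 30.5 against 34.6 CPM for adipocytes. The part of cell composition in the mitotic result was not tested.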

How the data were processed

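Skin RNA-Seq of 9 mice (5 control, 4 *Supt6*-KO) was read from the deposited table, which lists 17943 genes. For it the authors made estimated counts per gene with RSEM 1.3.1 after alignment to mm10 with Bowtie2 2.3.4.3, and deposited these counts without normalization between mice. They also deposited TPM values for the controls and for *Supt6*-KO mouse 4, used here only for levels per length and for effective length. HISAT and DESeq2 1.4.5 are named in the submitters' processing notes without a role, and the annotation release and strand of counting are not given in the sources used here. No column held per-sample values of another series.

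Estimated counts, of which 8.39% to 9.55% per mouse were not whole, were rounded. Genes with a sum under 10 counts were left out. Groups were compared with edgeR 4.0.16 (R 4.3.3, TMM factors, quasi-likelihood test, no covariate, the 9 mice in 1 fit), and p-values were adjusted by the Benjamini-Hochberg method across every gene in the fit. The SE was taken as the size of the log2 fold change divided by the square root of F. Library totals of 29627334 to 30967109 set a floor of 3 counts per library, which covers counting error only. Separate animals are taken from the labels, and p-values measure only the spread between these mice.

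Gene names come from RefSeq (17917 of 17943 matched, assembly GRCm38.p6) and transcript lengths for the planned length correction from GENCODE M21 (17867 genes). The genes and lists were chosen with earlier results of these data known. Named are *Supt6* and all 40 genes, with the value in every mouse for 13 core genes and the 3 with the largest and the 3 with the smallest change, then the 6 largest changes each way among other mitotic genes, the 2 largest each way in the other lists, and marker genes. As alternatives, the fit was repeated in DESeq2 1.42.0, with other scale factors (library totals, upper quartile) or filters, without the 50 most abundant genes, with the replicate number as a block, with length corrected, with sex as a covariate, and with each mouse left out. The tests were tried on simulated counts first. Summaries used pandas 2.3.3 and scipy 1.17.1 under Python 3.11.15.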

Additional observations from a re-analysis of the deposited data

Results flagged for a closer look

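In 16 of 82 groups of mice examined (the 40 genes and *Supt6* in both conditions), 1 mouse lay far outside the others by Dixon's criterion, where chance gives about 1 group in 20, or 4.1 of 82. The mouse was *Supt6*-KO mouse 4 in all 16, always as the highest value, and no control group met the criterion. The genes share this 1 library, so the 16 are not independent. The share of all genes meeting the criterion was not computed, so the 16 cannot be read as particular to these genes. Of all genes, 8.04% were at least 2-fold above the mean of mice 1 to 3 in mouse 4.

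Among genes called higher, mouse 4 was at 129 CPM in *Cdc20* (next mouse 34.7), 110.4 CPM in *Ube2c* (33.8), 144 CPM in *Ccna2* (51.9), 69.2 CPM in *Ect2* (23.7), 62.9 CPM in *Aurka* (15), 55.1 CPM in *Aurkb* (15.6) and 46.3 CPM in *Hmmr* (12.4). Among genes that did not pass in edgeR it was at 92.6 CPM in *Anln* (31.1), which DESeq2 called higher, 73.6 CPM in *Prc1* (23.5), 50.3 CPM in *Tpx2* (12.9), 50.3 CPM in *Ckap2l* (19.3), 40.8 CPM in *Incenp* (13.7), 24.2 CPM in *Plk1* (3.52), 24.2 CPM in *Kif4* (10.8), 22.8 CPM in *Ttk* (9.06) and 17.5 CPM in *Kif23* (5.76).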

How the results depend on the processing

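The count of 23 higher genes out of 40 was met or exceeded under DESeq2 (25), upper-quartile factors, both other filters, removal of the 50 most abundant genes and the added sex covariate (23 each), and the same 23 genes were in each of these. Leaving out 1 mouse at a time gave 23 to 29 higher and 0 to 3 lower genes and a median log2 fold change of 0.73 to 1.69, the lowest median being without *Supt6*-KO mouse 4. It gave 56 to 70 higher and 4 to 14 lower other mitotic genes, 20 to 22 higher and 1 to 11 lower G1/S genes, and -1.66 to -1.47 for *Supt6*. The *Supt6* value of -1.57 moved further with scale and length. It was -2.26 with library totals, -0.74 with GENCODE length and -0.65 with length corrected by counts over TPM, and was called lower in each. Both length corrections gave 32 higher genes.

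With library totals the lower genes numbered 2 of the 40 (from 0), 14 other mitotic genes (from 5) and 9 G1/S genes (from 3). The higher other mitotic genes then numbered 34 (from 61), beside 54.6% of all genes lower and 16.9% higher. With length corrected by counts over TPM the lower genes were 1, 2 and 1 for these lists, beside 30.1% of all genes. With GENCODE length 3 other mitotic and 1 G1/S gene were lower, beside 29.8% of all genes. Without mouse 4 and with length corrected by counts over TPM, 30 of the 40 and 22 G1/S genes were higher and 4 and 5 lower. In that fit 42.6% of all genes were higher and 31.1% lower.

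The settings without mouse 4 and with library totals, chosen after the data were seen, changed most. Of the 40 genes 12 were higher and 15 lower, with a median of -0.057 against a shift of -0.90 in all genes. The counts were 26 higher and 36 lower for other mitotic genes and 11 and 20 for G1/S genes. Beside these counts, 17.0% of all genes were higher and 60.6% lower. The sign was negative there for *Mki67* (-0.91), *Top2a* (-0.99), *Plk1* (-1.46), *Bub1b* (-0.72), *Incenp* (-1.02), *Cenpe* (-0.77), *Cenpf* (-0.70), *Kif20a* (-0.71), *Kif4* (-1.0), *Prc1* (-0.92), *Tpx2* (-0.68), *Anln* (-0.71), *Ckap2l* (-1.09), *Kif11* (-0.18), *Kif2c* (-0.050), *Nusap1* (-0.20) and *Ndc80* (-0.064), of which *Cenpf*, *Kif20a* and the last 4 were not called in that fit. With library totals alone the sign had already turned for *Mki67* (-0.16), *Top2a* (-0.03), *Incenp* (-0.08), *Cenpf* (-0.02), *Prc1* (-0.006), *Ckap2l* (-0.29) and *Kif4* (-0.43), and without mouse 4 alone for *Mki67* (-0.10), *Top2a* (-0.19), *Incenp* (-0.23), *Plk1* (-0.69), *Prc1* (-0.13), *Ckap2l* (-0.30) and *Kif4* (-0.21), none of them called in these 2 fits. *Pttg1* turned with library totals (-0.55), with them and without mouse 4 (-0.53), and with length corrected by counts over TPM with (-0.54) and without mouse 4 (-0.53). It also turned with GENCODE length (-0.21), where it was not called. The cause was not tested.

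Replicate numbers did not pair the mice: same-numbered mice had a mean correlation of deviations of 0.08 (lowest -0.01, 4 pairs), against -0.02 for the 16 other pairs. A fit with the replicate number as a block (mice 1 to 4) gave 23 higher genes of the 40 and 8 lower other mitotic genes (from 5).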
